A study of Mus musculus with 11 samples.

Results

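The genes described here are 38 genes of glycolysis and of the cellular response to low oxygen, followed through the early conversion of mouse fibroblasts toward pluripotent stem cells. They were chosen by name, but with earlier results of these data known. They comprise 17 glycolysis enzymes, 4 glucose and lactate transporters and 3 regulators of glycolysis and pyruvate use. The others are 10 hypoxia response genes and 4 genes for hypoxia-inducible factor (HIF) subunits and prolyl hydroxylases. Of the 38, 34 were measured on the arrays by a probe set that names 1 gene, out of 22180 genes named in that way. Gpi1, Aldoa, Eno1 and Ankrd37 were not analysed here, and Aldoa and Ankrd37 each had 1 probe set shared with other genes, which was not used. Where a gene had several probe sets, as 8 of the 34 did, the one of highest mean over the 11 arrays stands for it.

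Total RNA of 11 cell samples was hybridised, 1 array each, so no group has a replicate. The reprogramming cells were passage 4 mouse embryonic fibroblasts heterozygous for Rosa-rtTA, a doxycycline-dependent activator expressed from the Rosa locus, which had been infected with tetO viruses for Klf4, Oct4, Myc and Sox2. Doxycycline was given from 1 day after infection, and that day is day 0. At day 6 and at day 9, CD49d+, CD73+ and CD73- cells were taken by 2 rounds of sorting, and unsorted cells were taken alongside. In the submitters' terms the CD49d+ and the CD73+ gate hold poised cells, and the CD73- gate holds non-poised cells. The controls were uninfected Rosa-rtTA heterozygous fibroblasts (MEF, passage 4, medium with 10% cosmic calf serum), the partially reprogrammed line SC4 (1 line, passage 10, 15% cosmic calf serum), and V6.5 embryonic stem cells (ESC, passage 11, 12% knockout replacement serum with 3% cosmic calf serum and LIF). The reprogramming samples, like MEF, had 10% cosmic calf serum. Since media and passage differ between the controls, cell type, medium and passage cannot be told apart in comparisons with SC4 and ESC.

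Glycolysis splits glucose into pyruvate in the cytosol and yields ATP without oxygen. Lactate dehydrogenase turns the pyruvate into lactate, which leaves the cell through monocarboxylate transporters, while pyruvate dehydrogenase sends it into the citric acid cycle unless a kinase such as PDK1 blocks it. HIF-1 and HIF-2 are transcription factors whose alpha subunits are hydroxylated by prolyl hydroxylases and destroyed when oxygen is present. In low oxygen they bind hypoxia response elements and activate genes of glycolysis, lactate export, blood vessel growth and collagen modification. Pluripotent stem cells are known for a high rate of glycolysis, and a shift toward it is a known feature of reprogramming.

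Promoter sequences show where the core letters of the hypoxia response element occur near some of these genes. From RefSeq on GRCm38.p6, windows from 250 bases before to 50 bases after each gene's start were searched on both strands for ACGTG, the usual core of that element, and for a variant core, GCGTG. The E-box bound by Myc, CACGTG, was searched too, and since it contains ACGTG each such match counts for both. An entry was found for 35 of the 38 genes. ACGTG lay in a window of 25 of these 35 genes, against 21.8% of 27025 genes, and GCGTG in 23 of 35, against 35.2%. CACGTG lay in 6 of 35, against 8.09%. A match is only a match of letters and shows no binding. The window of Eno2 held neither core. Stretches of 60 bases are shown, for the 4 genes that lay at least 1 log2 unit above MEF in all 8 reprogramming samples (Hk2, Slc16a1, Pdk1 and Mxi1), for Aldoc, which differed most between poised and CD73- cells, and for Slc2a1, whose highest reprogramming value was in day 9 CD49d+ cells. They lie upstream of the start and are written 5′ to 3′ on the gene's strand, with matches to either core, on either strand, in capitals. They are chr6:82774475-82774534 on the minus strand (Hk2), and on the plus strand chr3:104638437-104638496 (Slc16a1), chr2:71873118-71873177 (Pdk1), chr19:53329319-53329378 (Mxi1), chr11:78322995-78323054 (Aldoc) and chr4:119108681-119108740 (Slc2a1).
Hk2: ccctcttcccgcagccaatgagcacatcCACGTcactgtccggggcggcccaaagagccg
Slc16a1: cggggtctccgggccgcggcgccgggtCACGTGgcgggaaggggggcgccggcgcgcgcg
Pdk1: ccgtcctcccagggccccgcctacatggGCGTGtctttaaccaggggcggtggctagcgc
Mxi1: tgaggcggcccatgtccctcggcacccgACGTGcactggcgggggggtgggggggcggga
Aldoc: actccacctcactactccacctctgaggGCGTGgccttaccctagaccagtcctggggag
Slc2a1: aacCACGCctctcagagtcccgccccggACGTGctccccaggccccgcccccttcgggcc
The Slc16a1 stretch holds the E-box, and the Slc2a1 stretch holds both a GCGTG on the opposite strand and an ACGTG. Each stretch was placed around the upstream ACGTG nearest the start, or else a GCGTG, so each holds a core by construction. Mxi1 has 3 windows, of which number 2 is shown and number 1 held neither core. Pdk1 has 2 windows, of which number 1 is shown and the other held neither core.

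The deposited values are intensities on a linear scale with a floor of 100, which held 52.14% to 54.31% of the probe sets on each array. For such a value only a limit from above is known. Of the 14301 genes that lay above the floor on at least 1 array, 13313 were tested in the 8 reprogramming arrays, and 32 of the 34 measured genes of the set were among them. Car9 and Adm lay at the floor on all 8 of these arrays. Population differences were fitted on log2 intensity with limma over both days, so their errors and p-values measure how well day 6 and day 9 agree and not the spread between separate cultures. A gene passed at an adjusted p under 0.05, with adjustment over all 13313 genes. Comparisons with the controls have no test and are counted at 1 log2 unit or more. In bulk RNA, fewer cells with a transcript and less of it per cell cannot be told apart.

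Marker genes were summed to check the labelled cells. The 10 fibroblast markers summed to 44364 in MEF, 3129 to 13008 in the 8 reprogramming arrays, 1533 in SC4 and 3274 in ESC. Of 10 stem cell markers, 9 were at the floor in MEF and 0 in ESC. Of 7 macrophage and blood markers, Ptprc, Csf1r, Adgre1, Tyrobp and Lyz2 did not leave the floor in any of the 8 reprogramming samples, nor did Tie1 and Emcn of 6 endothelial markers. The blood markers Laptm5 and Cd68 and the endothelial markers Tek, Pecam1, Cdh5 and Kdr were above the floor on at least 1 of them, while 6 epithelial markers summed to 1196 to 3179 there and 8886 in ESC.

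Poised cells, taken as the mean of CD49d+ and CD73+, were compared with CD73- cells to see how the set differs between cells labelled poised and non-poised. Of the 32 genes tested, 3 were higher and 1 was lower, where 7.16% of all genes tested were higher, 4.85% were lower and 12% passed in either direction. The genes that passed were those for aldolase C, enolase 2 and HIF-2 alpha, which were higher, and for the vessel growth factor VEGF-A, which was lower. Their share of the set was thus near that of all genes. The median log2 difference over the 32 genes was -0.016, against -0.010 over all genes tested, and as many of the 32 were positive (16) as negative (16). At an unadjusted p under 0.05, 6 were higher and 5 lower, against 30.5% of all genes in either direction. Single markers of other cell types moved with this comparison: the blood marker Laptm5 (100 to 334.9 over the 8 arrays) by 1.17 ± 0.115 on the log2 scale (adjusted p = 0.00856) and the endothelial marker Tek (459.1 to 1673) by 1.30 ± 0.122 (adjusted p = 0.00786), both higher in poised cells. Laptm5 lost the call without day 6 CD73+, CD73- or unsorted or day 9 CD73+ or CD73- cells, and Tek without all of these but day 9 CD73- (0.00300 to 0.0877 and 0.00151 to 0.0666 over 14 alternatives). Of the 2 blood markers tested, 1 had a negative difference (-0.08), as did 1 of the 4 endothelial markers (-0.34). Among the other lists, 2 of 10 fibroblast (median -0.65), 1 of 5 stem cell and 1 of 7 proliferation markers passed as lower. Of 6 epithelial markers, 1 passed as higher. The part of these markers in the results was not tested.

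Aldoc encodes aldolase C, an isoform of the enzyme that splits fructose bisphosphate and is best known from brain. Its intensity at day 6 was 899.9 in CD49d+, 408.9 in CD73+, 190.9 in CD73- and 275.7 in unsorted cells, and at day 9 it was 1183, 405.7, 166.9 and 397.6 in the same order. The controls gave 407.1 in MEF, 1154 in SC4 and 2716 in ESC. CD49d+ cells were highest and CD73- cells lowest at both days, with CD73+ and unsorted cells between them, and the 4 poised arrays did not overlap the CD73- arrays. The poised minus CD73- log2 difference was 1.86 ± 0.165 (SE), or 3.63-fold (adjusted p = 0.00737). With 1 array left out, the call was lost without the day 6 CD73+ (adjusted p = 0.0519), day 6 CD73- (0.0567), day 6 unsorted (0.0561) or day 9 CD73- array (0.0671), while the log2 difference stayed between 1.61 and 2.11 and the adjusted p between 0.00175 and 0.0671 over 14 alternatives.

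Eno2 encodes enolase 2, the neuronal form of the enzyme that makes phosphoenolpyruvate. Its intensity was 384.5 in CD49d+, 310.0 in CD73+, 134.4 in CD73- and 206.5 in unsorted cells at day 6 and 319.1, 437.1, 192.9 and 270.7 in the same order at day 9, with 431.0 in MEF, 477.0 in SC4 and 362.8 in ESC. All 4 poised arrays lay above both CD73- arrays, but the order of the poised gates turned between the days. The log2 difference was 1.16 ± 0.181, or 2.23-fold (adjusted p = 0.0237). CD73- cells lay farther below the MEF value than any poised array. The call was kept without either CD49d+ array and lost without any of the other 6 (adjusted p from 0.0735 without day 9 unsorted to 0.167 without day 6 CD73-). Over the 14 alternatives its adjusted p ran from 0.00792 to 0.167.

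Epas1 encodes HIF-2 alpha, the oxygen-regulated subunit of HIF-2. Its intensity in the reprogramming cells was near the floor, at 164.0 in CD49d+, 148.4 in CD73+, 106.7 in CD73- and 141.3 in unsorted cells at day 6 and 169.1, 218.3, 111.8 and 177.7 in the same order at day 9. The controls gave 118.9 in MEF, 656.9 in SC4 and 519.6 in ESC. CD73- cells lay just above the floor and below all poised arrays, while SC4 and ESC were above every reprogramming array. The log2 difference was 0.66 ± 0.123, or 1.59-fold (adjusted p = 0.0330). Leaving out any array except day 9 CD49d+ ended the call, with adjusted p from 0.0585 without day 6 CD73+ to 0.203 without day 9 CD73-. The call was also lost in limma with p adjusted over all 22180 named genes (0.0550), without the day term (0.0686) and on the 6 sorted arrays alone (0.0601). It was kept with arrays centred on their median (0.0239), quantile normalized (0.0301) or probe sets averaged (0.0339).

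Vegfa encodes the growth factor VEGF-A, a classical HIF target that drives vessel growth. Its intensity was 578.8 in CD49d+, 658.0 in CD73+, 806.8 in CD73- and 715.5 in unsorted cells at day 6 and 557.2, 488.8, 748.8 and 680.8 in the same order at day 9, with 1328 in MEF, 274.4 in SC4 and 1856 in ESC. CD73- cells were highest at both days, and every reprogramming array lay below MEF and above SC4. The log2 difference between poised and CD73- cells was -0.45 ± 0.0952, a level 1.37-fold lower in poised cells (adjusted p = 0.0441). Leaving out any array except day 6 CD73+ ended the call, with adjusted p from 0.0629 without day 9 CD49d+ to 0.231 without day 9 CD73-. The call was also lost in limma with p adjusted over all 22180 named genes (0.0735), without the day term (0.0753) and on the 6 sorted arrays (0.0723). It was kept with arrays centred on their median (0.0219), quantile normalized (0.0370) or probe sets averaged (0.0444).

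**Figure D1:**
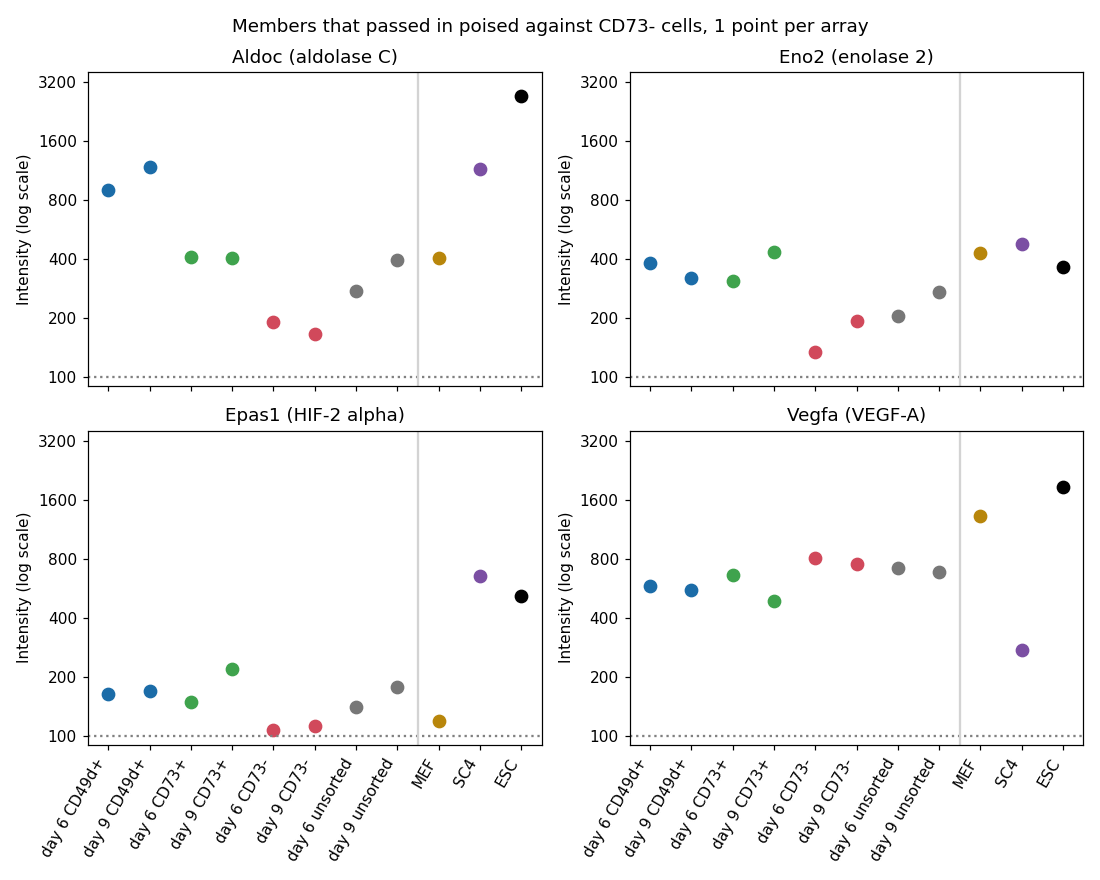
Intensity on a log scale (y axis) of Aldoc, Eno2, Epas1 and Vegfa on each of the 11 arrays (x axis), 1 point per array, with the dotted line at the floor of 100. Aldoc runs from 166.9 in day 9 CD73- cells to 1183 in day 9 CD49d+ cells and 2716 in ESC, and the CD73- points are lowest of the sorted cells for Aldoc, Eno2 and Epas1 and highest for Vegfa.

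No other gene of the set passed in this fit. Among the enzymes, Gapdh was at 8595 to 8999 over the 8 arrays, with a poised minus CD73- log2 difference of 0.00179. Hexokinase 1 (Hk1) had 0.16 (limma adjusted p = 0.113) and hexokinase 2 (Hk2) had -0.31 (limma adjusted p = 0.146). Of the 14 enzymes tested, 7 had positive and 7 negative differences. Of the 4 transporters, the lactate carrier Slc16a1 (MCT1) came closest, at -0.28 ± 0.0641 (limma adjusted p = 0.0543). Without the day term Slc16a1 passed (limma adjusted p = 0.0445). Among the hypoxia genes, the collagen prolyl hydroxylase subunit P4ha1 had -0.37 (adjusted p = 0.0863) and the mitophagy gene Bnip3 0.39 (adjusted p = 0.361). Egln3, the HIF prolyl hydroxylase PHD3, which is itself a HIF target, had 0.63 ± 0.151 (limma adjusted p = 0.0587). With each array centred on its median Egln3 passed, at 0.62 (limma adjusted p = 0.0373). Hif1a, which encodes HIF-1 alpha, had -0.10 (adjusted p = 0.388).

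**Figure D2:**
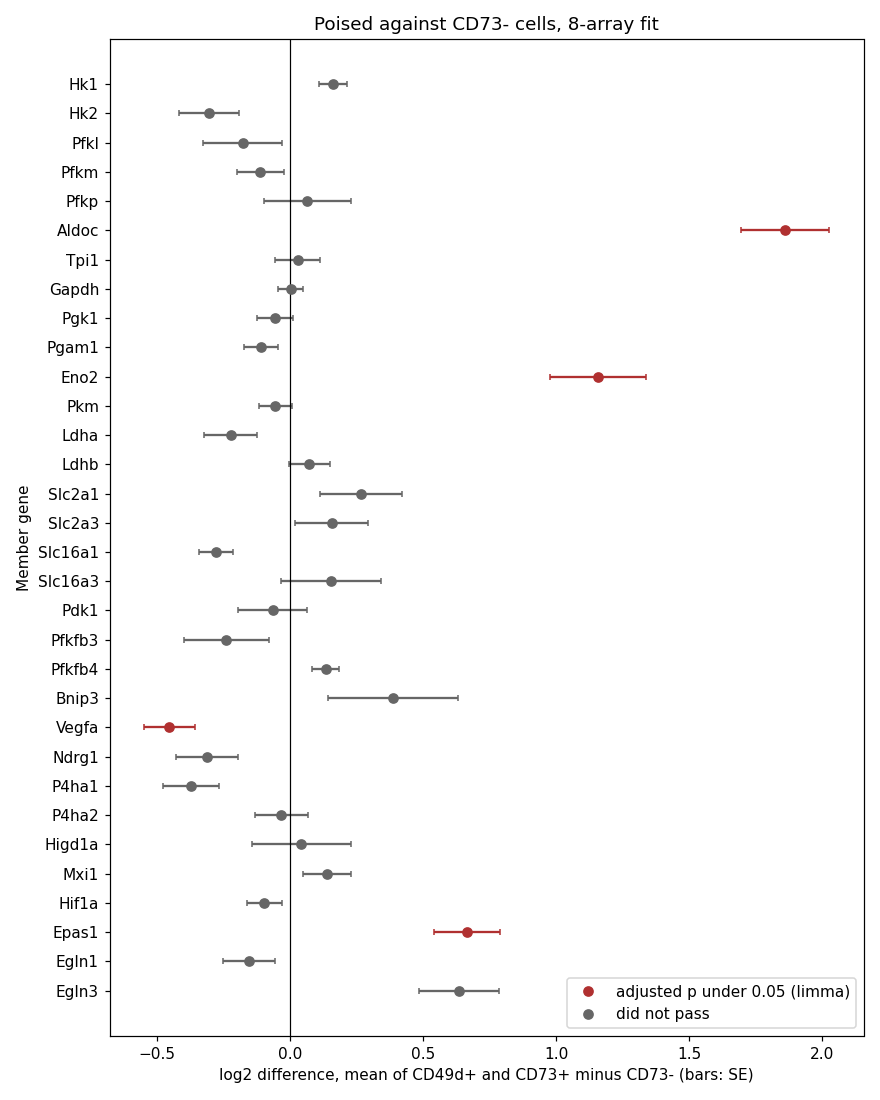
Log2 difference of poised (mean of CD49d+ and CD73+) minus CD73- cells (x axis) for the 32 genes tested (y axis), from the limma fit of the 8 reprogramming arrays; bars are standard errors and red points passed at an adjusted p under 0.05. Aldoc at 1.86, Eno2 at 1.16 and Epas1 at 0.66 lie to the right, Vegfa at -0.45 to the left, and most of the others lie near 0.

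Each poised gate was also set against CD73- cells; both comparisons share the CD73- arrays and also share arrays with the one above. In CD73+ minus CD73- cells, 3 of 32 genes were higher and 0 lower, against 5.06% of all genes higher, 2.94% lower and 8% in either direction. They were Aldoc at 1.19 ± 0.191 (adjusted p = 0.0330), Eno2 at 1.19 ± 0.209 (0.0383) and Epas1 at 0.72 ± 0.142 (0.0472). Aldoc and Epas1 lost the call without any 1 of the 8 arrays, and Eno2 kept it only without a CD49d+ array. The adjusted p then ran up to 0.199 for Aldoc, 0.268 for Eno2 and 0.245 for Epas1, each without an array of CD73+ cells at day 9, and over 14 alternatives it began at 0.0150, 0.0150 and 0.0339. In CD49d+ minus CD73- cells, 2 of 32 were higher and 0 lower, against 7.69% higher, 5.66% lower and 13.3% in either direction over all genes. Aldoc had 2.53 ± 0.191, or 5.78-fold (adjusted p = 0.00674), with 2.24 at day 6 and 2.83 at day 9. Eno2 had 1.12 ± 0.209 (adjusted p = 0.0332), with 1.52 at day 6 and 0.73 at day 9. Aldoc lost the call without day 6 CD49d+ (0.0537), day 6 unsorted (0.0548) or day 9 CD73- (0.0546), with a range over 14 alternatives of 0.00138 to 0.0548. Eno2 kept it without day 9 CD49d+ and lost it without each of the other 7 arrays (0.0147 to 0.159 over 14 alternatives).

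The poised gates were compared with each other to see whether CD49d+ and CD73+ cells differ. None of the 32 genes passed, in a comparison in which 0.00751% of all genes were higher, 0.0225% lower and 0.03% passed in either direction. At an unadjusted p under 0.05, 10 were higher and 1 lower in CD49d+ cells, against 24.1% of all genes in either direction. Aldoc was at 1.34 ± 0.191 (adjusted p = 0.0606), triose phosphate isomerase (Tpi1) at 0.42 ± 0.0976 (0.0892), and the high-affinity glucose transporter Slc2a3 (GLUT3) at 0.63 ± 0.160 (0.103). With each array centred on its median, 657 genes passed and Aldoc (1.31, adjusted p = 0.0320) and Slc2a3 (0.60, adjusted p = 0.0487) were among them. Of the genes that passed, 1 of only 4 (25%) was higher in CD49d+ cells as deposited. The share was 37.6% of 657 after centring and 44.1% of 340 after quantile normalization.

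By day, the CD49d+ minus CD73+ difference was positive for 19 of 32 genes at day 6 (47.1% of all genes tested) and for 27 of 32 at day 9 (52.5%), with medians of 0.09 and 0.28. With arrays centred or quantile normalized the day 9 count was 26 of 32, against 41.6% and 47.2% of all genes. Each day has 1 array per gate, so these counts have no test. In the shares of all genes as deposited, a gene at the floor on both arrays counts as not positive. The day 9 CD49d+ array was the highest of the 8 for 12 of the 32 genes, against 10.4% of all genes tested. These were the enzymes Pfkl, Pfkp, Aldoc, Pgk1 and Pkm, the transporters Slc2a1, Slc2a3 and Slc16a3, and Bnip3, Higd1a, Egln1 and Egln3. The day 9 CD73+ array was the lowest for 14 of 32, against 19.1%: Pfkl, Pfkm, Pfkp, Tpi1, Pgk1, Pkm, Ldha, Slc16a3, Bnip3, Vegfa, Ndrg1, P4ha1, P4ha2 and Egln1. With centred arrays these counts were 9 (against 7.06%) and 12 (against 15%). Outside the set, the day 9 CD73+ array was also lowest of the 8 for the citric acid cycle genes Idh3a, Idh3b, Idh3g, Ogdh, Dlst and Suclg2. The same held for Sdha, Sdhb, Sdhc, Sdhd, Fh1 and Mdh2, but not for Cs, Dld, Suclg1 and Sucla2. Over both days CD49d+ minus CD73+ was positive for 12 and negative for 4 of these 16 genes, with a median of 0.08. The pattern was thus not particular to the set. The summed intensity of 10 fibroblast marker genes was also lowest in day 9 CD73+ cells, at 3129, against 4979 in day 9 CD49d+ cells and 3129 to 13008 over the 8 arrays; its part in these differences was not tested.

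**Figure D3:**
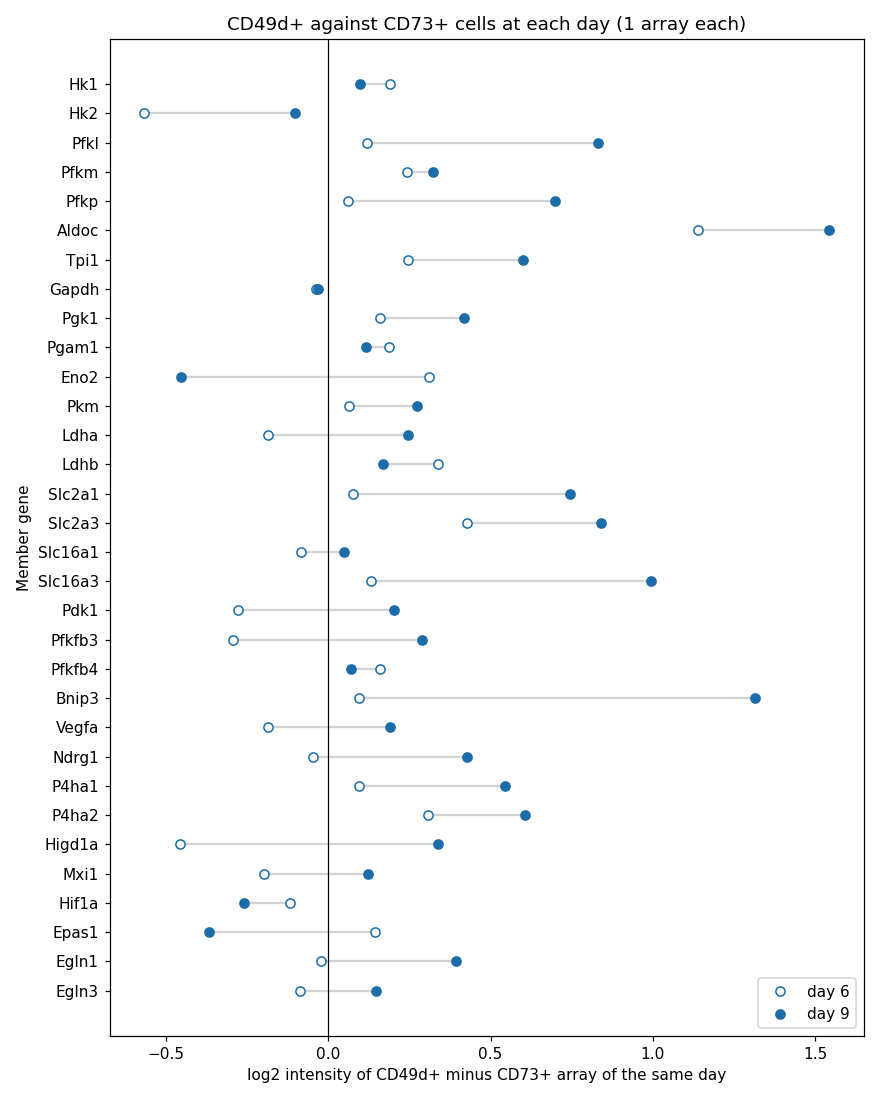
Log2 intensity of the CD49d+ array minus the CD73+ array of the same day (x axis) for the 32 genes tested (y axis), with open points for day 6, filled points for day 9 and 1 array per gate and day. At day 9, 27 of 32 points lie right of 0, with Aldoc at 1.54, Bnip3 at 1.31 and Slc16a3 at 1.0 farthest.

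Slc2a1, Slc2a3, Slc16a3 and Bnip3 show this pattern in their values, while the fourth transporter, Slc16a1, was highest of the 8 in day 6 CD73- cells and differed by 0.05 between the poised gates at day 9. Slc2a1 encodes GLUT1, the basal glucose transporter of most cells, and its intensity was 2969 in CD49d+, 2815 in CD73+, 2693 in CD73- and 2287 in unsorted cells at day 6 and 5175, 3087, 2972 and 2969 in the same order at day 9. The controls gave 2724 in MEF, 5043 in SC4 and 8268 in ESC, so the day 9 CD49d+ value was near that of SC4 while the other 7 arrays were near that of MEF. For Slc2a3 the values were 367.2 in CD49d+, 273.1 in CD73+, 254.9 in CD73- and 266.2 in unsorted cells at day 6 and 680.9, 380.1, 509.1 and 367.2 in the same order at day 9, with 270.8 in MEF, 1111 in SC4 and 7571 in ESC. Day 9 CD49d+ cells were again highest of the 8, far below ESC. Slc16a3, the lactate exporter MCT4 and a HIF target, gave 599.9 in CD49d+, 548.1 in CD73+, 573.3 in CD73- and 608.9 in unsorted cells at day 6 and 1060.2, 531.7, 607.0 and 673.4 in the same order at day 9, with 479.3 in MEF, 679.8 in SC4 and 1615 in ESC. Apart from day 9 CD49d+ cells, its reprogramming values lay within a narrow range above MEF. Bnip3, which marks mitochondria for removal and is induced by HIF-1, gave 381.1 in CD49d+, 357.0 in CD73+, 300.1 in CD73- and 324.9 in unsorted cells at day 6 and 616.4, 247.8, 281.0 and 298.1 in the same order at day 9, with 407.1 in MEF, 611.9 in SC4 and 1326 in ESC. From day 6 to day 9 its log2 intensity moved by 0.69 in CD49d+ and by -0.53 in CD73+ cells, a contrast that was not tested.

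Day 9 was compared with day 6 across the 4 populations. None of the 32 genes passed, and 0% of the 13313 genes did in either direction; 1545 genes, 11.6%, had an unadjusted p under 0.05 in limma. Among the 32 these were Slc2a3 (log2 difference 0.71 ± 0.113, adjusted p = 0.170), Slc2a1 (0.36, adjusted p = 0.383) and the muscle phosphofructokinase Pfkm (-0.20, adjusted p = 0.394). Slc2a3 was higher at day 9 in all 4 populations, by 0.89 in CD49d+, 0.48 in CD73+, 1.0 in CD73- and 0.46 in unsorted cells on the log2 scale. It was the 1 gene of the set that passed with each array centred on its median (adjusted p = 0.0295), a setting in which 110 genes passed. Within populations, the day 9 value was above the day 6 value for 25 of 32 genes in CD49d+ cells (48.2% of all genes tested), 11 in CD73+ (36.7%), 16 in CD73- (53.0%) and 14 in unsorted cells (40.4%). These counts moved with the scaling: centring gave 24, 15, 13 and 21, against 46.2%, 57.1%, 37.9% and 63.8% of all genes, and 25 or 24 of 32 in CD49d+ cells was above the share of all genes under both. In the shares as deposited, a gene at the floor on both arrays again counts as not positive.

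Against uninfected fibroblasts, 4 of the 34 measured genes were at least 1 log2 unit higher in each of the 8 reprogramming arrays and 2 were lower, where 4.89% of the 14301 genes were higher, 5.78% lower and 10.7% either. The higher genes were Hk2, the MCT1 gene Slc16a1, the pyruvate dehydrogenase kinase Pdk1 and Mxi1, a Max partner that opposes Myc. The lower genes were the collagen prolyl hydroxylase subunit P4ha2 and Adm, which encodes the vasodilator adrenomedullin. All comparisons with MEF rest on the same single MEF array. The median log2 difference over the 34 genes was 0.15, against 0.01 over all genes; with each array centred on its median the 34-gene median turned to -0.01 and that of all genes moved to -0.16. The share of higher genes among those that stood apart was 45.9% as deposited and 34.4% after centring.

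Hk2 is the inducible hexokinase of growing cells. Its intensity was 646.3 in CD49d+, 957.9 in CD73+, 970.3 in CD73- and 828.5 in unsorted cells at day 6 and 857.4, 920.0, 1099 and 808.5 in the same order at day 9, with 195.9 in MEF, 790.4 in SC4 and 1696 in ESC. All 8 arrays lay above MEF, by 1.72 to 2.49 on the log2 scale, with day 6 CD49d+ cells lowest and ESC above all of them. Slc16a1 gave 3388 in CD49d+, 3594 in CD73+, 4467 in CD73- and 3666 in unsorted cells at day 6 and 3669, 3549, 4144 and 3567 in the same order at day 9, with 951.5 in MEF, 2954 in SC4 and 3536 in ESC. Its 8 values lay 1.83 to 2.23 log2 units above MEF and surrounded the ESC value, with CD73- cells highest at both days. Pdk1, whose kinase inhibits pyruvate dehydrogenase, gave 759.1 in CD49d+, 921.0 in CD73+, 931.6 in CD73- and 811.9 in unsorted cells at day 6 and 885.8, 770.2, 811.9 and 627.8 in the same order at day 9, with 289.8 in MEF, 823.7 in SC4 and 1296 in ESC. These lay 1.12 to 1.68 log2 units above MEF, and averaging with its other, dimmer probe set lowered the mean difference from 1.48 to 0.74. Mxi1 gave 967.9 in CD49d+, 1109.8 in CD73+, 914.3 in CD73- and 945.2 in unsorted cells at day 6 and 996.6, 916.0, 894.1 and 777.4 in the same order at day 9, with 315.1 in MEF, 896.0 in SC4 and 608.5 in ESC. Here the 8 arrays lay above ESC as well as MEF, by 1.30 to 1.82 over MEF; its other probe set gave a mean of 0.80.

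Adm was at 579.7 in MEF and 247.8 in ESC and at the floor in SC4 and all 8 reprogramming arrays, so it was at least 5.80-fold lower in each of these than in MEF. P4ha2 gave 162.1 in CD49d+, 130.9 in CD73+, 141.0 in CD73- and 162.1 in unsorted cells at day 6 and 169.1, 111.2, 148.4 and 187.3 in the same order at day 9, with 525.3 in MEF, 137.7 in SC4 and 306.2 in ESC. P4ha1, which encodes the major catalytic subunit of the same enzyme, gave 1351 in CD49d+, 1266 in CD73+, 1673 in CD73- and 1504 in unsorted cells at day 6 and 1483, 1016, 1608 and 1602 in the same order at day 9, with 2984 in MEF, 971.3 in SC4 and 2073 in ESC. Both were below MEF on all 8 arrays, P4ha2 by a mean log2 difference of -1.81 and P4ha1 by -1.07. Hif1a gave 1689 in CD49d+, 1832 in CD73+, 1781 in CD73- and 1696 in unsorted cells at day 6 and 1557, 1864, 1925 and 1709 in the same order at day 9, with 3408 in MEF, 1766 in SC4 and 1566 in ESC. All 10 other arrays thus lay below MEF on the probe set used, with a mean of -0.96 over the 8. Vegfa had a mean of -1.04. The summed fibroblast markers were 44364 in MEF and the 7 proliferation genes summed to 6377 in MEF against 18212 to 21208 in the 8 arrays; the part of either in these differences was not tested.

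Egln3 gave 596.3 in CD49d+, 633.7 in CD73+, 488.3 in CD73- and 445.1 in unsorted cells at day 6 and 865.7, 781.7, 430.2 and 479.0 in the same order at day 9, with 258.8 in MEF, 1088 in SC4 and 1718 in ESC. All 8 arrays lay above MEF, by 0.73 to 1.74 log2 units, and the poised arrays lay above the CD73- arrays at both days. Pfkp, the platelet phosphofructokinase, gave 1296 in CD49d+, 1241 in CD73+, 1295 in CD73- and 1594 in unsorted cells at day 6 and 1686, 1039, 1184 and 1229 in the same order at day 9, with 569.8 in MEF, 1266 in SC4 and 3608 in ESC. Its mean difference from MEF was 1.20, with day 9 CD73+ cells lowest, at 0.87. Pfkl, the liver form of that enzyme, gave 1007 in CD49d+, 927.3 in CD73+, 1135 in CD73- and 1193 in unsorted cells at day 6 and 1400.1, 786.6, 1144 and 1172 in the same order at day 9, with 1044 in MEF, 1776 in SC4 and 3433 in ESC. Reprogramming values of Pfkl surrounded that of MEF. Ndrg1, a stress-induced HIF target, gave 715.6 in CD49d+, 740.1 in CD73+, 861.3 in CD73- and 1235 in unsorted cells at day 6 and 863.4, 642.0, 970.1 and 1126 in the same order at day 9, with 863.4 in MEF, 747.8 in SC4 and 1913 in ESC. Unsorted cells were highest of the 8 at both days, and the sorted cells lay on both sides of the MEF value or at it. Ldhb, the lactate dehydrogenase subunit favoured in heart, gave 1378 in CD49d+, 1091 in CD73+, 1082 in CD73- and 1193 in unsorted cells at day 6 and 1314, 1169, 1269.9 and 1201 in the same order at day 9, with 1029 in MEF, 495.9 in SC4 and 2013 in ESC. It was lowest in SC4, below every other array.

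**Figure D4:**
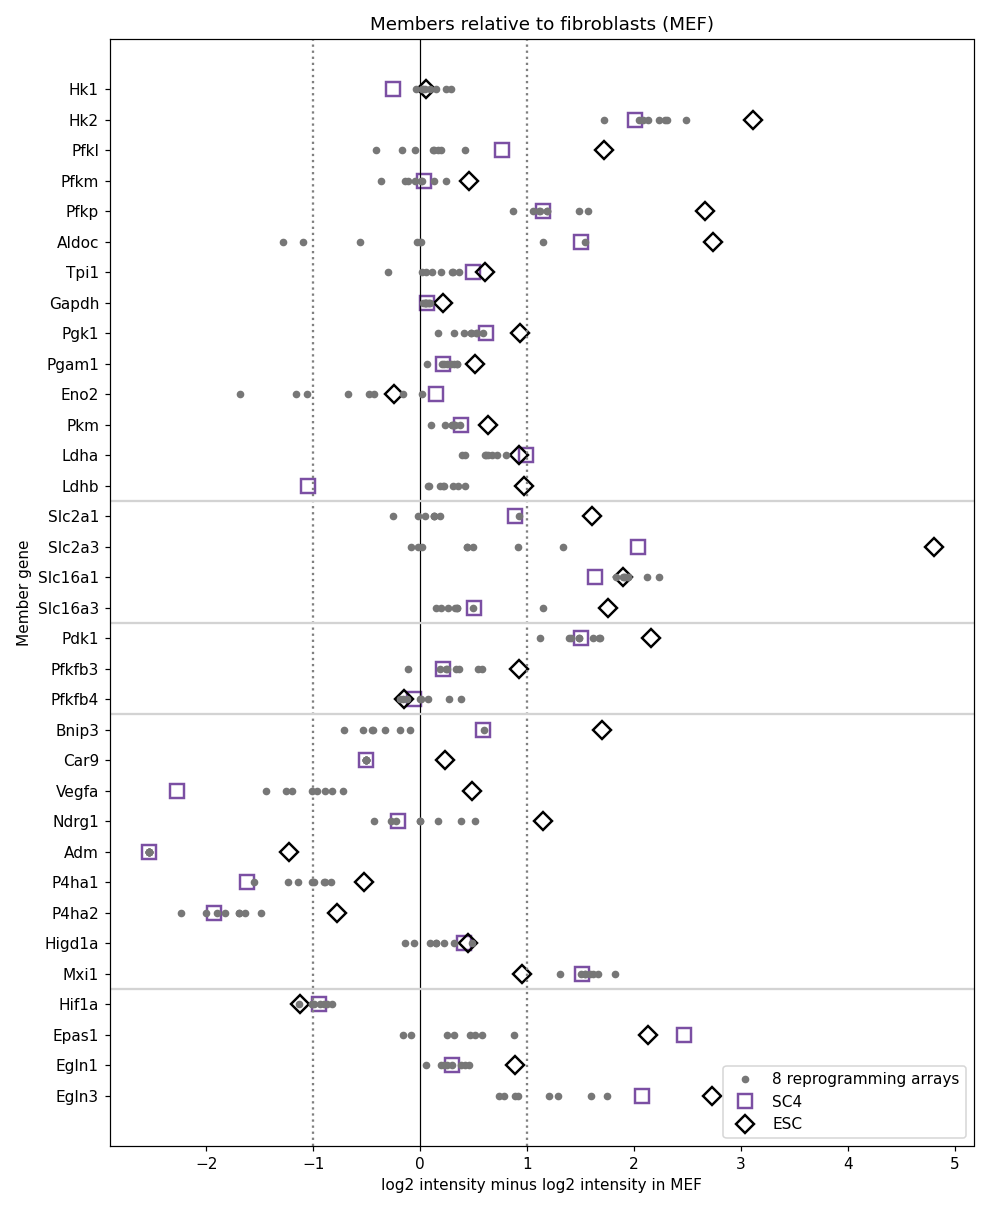
Log2 intensity minus that of the MEF array (x axis) for the 34 measured genes (y axis, grouped by role), with grey dots for the 8 reprogramming arrays, squares for SC4 and diamonds for ESC; dotted lines mark 1 log2 unit. Hk2, Slc16a1, Pdk1 and Mxi1 have all 8 dots right of the upper line, P4ha2 and Adm all left of the lower one, and Slc2a3 in ESC lies farthest right at 4.81; SC4, ESC and the 8 arrays share the MEF array.

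Embryonic stem cells held the highest values of much of the set. ESC was the highest of the 11 arrays for 21 of the 32 genes tested, against 17.2% of all genes tested, and the lowest for 0. Set against ESC, 0 of 34 genes were at least 1 log2 unit higher in all 8 reprogramming arrays and 8 were lower, where 2.76% of all genes were higher, 4.1% lower and 6.86% either. The 8 were Slc2a3 (mean log2 difference -4.37), Aldoc (-2.77), Bnip3 (-1.97), Epas1 (-1.78), Pfkl (-1.67), Vegfa (-1.52), Pfkp (-1.47) and Adm (at the floor). The difference was negative for 29 of the 34, with a median of -0.65, against 0.01 over all genes. The summed stem cell markers were 28736 in ESC against 1137 to 1979 in the 8 arrays, with Zfp42, Esrrb, Dppa5a, Tdgf1 and Sox2 at the floor on all 8.

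ESC and MEF were then compared directly, with 1 array each. There 13 of 34 genes were at least 1 log2 unit higher in ESC and 2 lower, where 12% of all genes were higher, 11.9% lower and 23.9% either, and the median was 0.92 against 0 over all genes. All 4 transporters were among the higher genes, at 4.81 for Slc2a3, 1.89 for Slc16a1, 1.75 for Slc16a3 and 1.6 for Slc2a1. Enzymes among them were Hk2 (3.11), Aldoc (2.74), Pfkp (2.66) and Pfkl (1.72), beside Pdk1 (2.16). The hypoxia and HIF genes were Egln3 (2.73), Epas1 (2.13), Bnip3 (1.70) and Ndrg1 (1.15). Lower in ESC were Adm (-1.23) and Hif1a (-1.12). The mean over all probe sets of a gene moved Slc2a1 to 0.82, Ndrg1 to 0.87 and Hif1a to -0.25. The other Slc2a1 probe set was at the floor on every array but ESC (102.9), which lowers such a mean by construction. The other Hif1a probe set, which is dim, went the other way, with 115.23 in MEF and 177.45 in ESC.

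In SC4, 9 of 34 genes were at least 1 log2 unit above MEF and 5 below, where 11% of all genes were above, 11.5% below and 22.4% either. Highest were Epas1 (2.47), Egln3 (2.07), Slc2a3 (2.04) and Hk2 (2.01), followed by Slc16a1 (1.63), Pdk1 (1.51), Mxi1 (1.51), Aldoc (1.5) and Pfkp (1.15). Below MEF were Adm, at the floor, Vegfa (-2.28), P4ha2 (-1.93), P4ha1 (-1.62) and Ldhb (-1.05). Vegfa thus had its lowest value in SC4 and its highest in ESC. The Pdk1 difference was 0.75 as the mean over its probe sets, of which 1 was at the floor throughout.

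Genes of the set differed in how much they varied. Over the 8 reprogramming arrays, 7 of the 32 genes tested spanned at least 2-fold from lowest to highest, against 13.6% of all genes, and the median ratio was 1.59 against 1.39. They were Aldoc (7.09-fold), Eno2 (3.25), Slc2a3 (2.67), Bnip3 (2.49), Slc2a1 (2.26), Epas1 (2.05) and Egln3 (2.01). Phosphoglycerate kinase (Pgk1) was at 5093 to 6799.8 and pyruvate kinase (Pkm) at 5796 to 7003, with ESC highest for both at 8661 and 8414. Tpi1 was at 3187 to 5025, Ldha, the main lactate dehydrogenase subunit of growing cells, at 718.7 to 959.5, Pfkm at 616.8 to 943.5 and Hk1 at 387.9 to 484.1. Ldha was lowest of the 11 arrays in MEF, at 549.8. Pfkfb3 was at 138.2 to 222.8 and Pfkfb4 at 151.7 to 225.9; their enzymes set the level of the sugar bisphosphate that activates phosphofructokinase. The mitochondrial protein gene Higd1a was at 168.2 to 259.3. Egln1 (PHD2), the main oxygen sensor of HIF, was at 817.4 to 1075, with 785.8 in MEF and 1452 in ESC. Car9, a carbonic anhydrase strongly induced by HIF-1, was above the floor only in MEF (141.9) and ESC (166.3).

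The signals of Gapdh and Pgam1 (phosphoglycerate mutase) are uncertain, since both genes have near-identical copies. For 32 of the 34 genes the number of the probe set lay among those of genes on the same chromosome, and these were the exceptions. The Pgam1 probe set used gave 2970.3 to 3618 over the 8 arrays, 2847 in MEF and 4052 in ESC, a 1.42-fold difference. Its other probe set, numbered among genes of the Pgam1 chromosome, gave 742.9 in MEF, 1007 to 1509 over the 8 arrays and 3537 in ESC, a 4.76-fold difference. For Pgam1 the direction was the same, and the size depended on the probe set. None of the 3 Gapdh probe sets is numbered among genes of its chromosome. The one used gave 8434 in MEF and 9751 in ESC, and another gave 8524 and 9546. The dimmest gave 892.8 in MEF, 567.8 to 762.0 over the 8 arrays and 871.4 in ESC, so there MEF was highest.

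Genes of the same pathways outside the set were counted from lists chosen by name, also with earlier results of these data known. Of 39 other hypoxia response and HIF pathway genes tested, 6 were higher and 5 lower in poised than in CD73- cells, where 12% of all genes passed in either direction. Higher were the HIF partners Arnt2 (1.12 ± 0.140, adjusted p = 0.0142) and Arnt (0.31), the clock repressor Bhlhe40 (0.92), the collagen lysyl hydroxylase Plod1 (0.78) and the histone demethylases Kdm4b (0.49) and Kdm3a (0.42). Lower were the carbonic anhydrase Car12 (-1.26 ± 0.132, adjusted p = 0.00980), the adenylate kinase Ak4 (-0.81), the transferrin receptor Tfrc (-0.48), the ubiquitin ligase Siah2 (-0.44) and the lipid droplet gene Hilpda (-0.40). The adjusted p of these 11 genes lay between 0.0098 and 0.0428, each lost the call without at least 1 of the 8 arrays, and 0 to 11 of them passed with 1 array left out. Genes of this list thus passed in both directions, as genes of the set did. Against MEF, 3 of the 41 genes of this list that passed the filter were at least 1 log2 unit higher in all 8 arrays and 6 were lower, against 4.89% and 5.78% of all genes, with 26 of 41 negative and a median of -0.14. Higher were Ak4, Car12 and Tfrc, by means of 3.82, 3.45 and 3.18, and lower were Cxcl12 (-4.04), Lox (-3.38), Errfi1 (-1.71), Plod1 (-1.69), Rora (-1.67) and Ppp1r3c, at the floor on all 8.

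None of 19 other glycolysis and pyruvate genes passed in poised against CD73- cells (limma). At an unadjusted p under 0.05, 6 of the 19 did, against 30.5% of all genes. Largest were the pyruvate dehydrogenase kinases Pdk2 at 0.72 (adjusted p = 0.113) and Pdk4 at -0.45 (0.112), the phosphatase Pdp1 at -0.42 (0.0786) and the transporter Slc16a7 at -0.34 (0.0756). None of 6 pentose phosphate pathway genes passed (2 unadjusted, against the same 30.5%), with Rpia at -0.40 and Rpe at -0.25. None of 16 citric acid cycle genes passed (5 unadjusted, against 30.5%), with Suclg1 at -0.35 and Dld at -0.31. Against MEF, 15 of the 16 citric acid cycle genes had a positive mean difference, with a median of 0.42, where the 14 glycolysis enzymes had 11 positive and a median of 0.18. With centred arrays the positive counts were 13 of 16 and 7 of 14, where 36% of all genes were positive in place of 52%. Centring shifts floor values too, so genes tied at the floor no longer differ by 0 there.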

How the data were processed

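Total RNA of 11 mouse cell samples, 1 array each, was measured on Affymetrix gene arrays. The authors deposited 1 table of linear intensity values for 41345 probe sets with a floor of 100. Per the submitters' processing notes Partek was used, of unstated version, with summarisation and scaling not given in the sources used here. By GEO's platform annotation, 23521 probe sets have 1 gene, 1814 have several and 16010 have none, and those with 1 gene were used.

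The design assumed log2 values, so log2 was taken. Genes above the floor on at least 1 array were kept. limma 3.58.1 in R 4.3.3 was run on log2 intensity of the 8 reprogramming arrays with terms for 4 populations and 2 days. It had 3 residual degrees of freedom (prior 2.12), and Benjamini-Hochberg adjustment was over 13313 genes. Errors are disagreement between days or populations, since no group has a replicate and the labels name no separate cultures. The array number limits the precision. Control comparisons have no test. Alternatives were centring, quantile normalization, averaged probe sets, adjustment over all 22180 named genes, other terms, 6 sorted arrays and leaving out each array. Genes that passed, or lay at least 1 log2 unit from a control, have all values given. Pathway lists are given by counts and by their genes that passed, or else by those of largest difference. The 38 genes and the lists were chosen with earlier results of these data known. Promoter sequences are from RefSeq (GRCm38.p6).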

Additional observations from a re-analysis of the deposited data

Results flagged for a closer look

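Bnip3 was set apart because its day 9 and day 6 arrays differ in opposite directions in the poised gates: its log2 intensity was 0.69 higher at day 9 in CD49d+ cells and 0.53 lower in CD73+ cells (-0.53), a gap of 1.22. Each of the 4 values is 1 array, so the difference between the gates was not tested.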

How the results depend on the processing

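As deposited, 1599 genes passed in poised minus CD73-, 1065 in CD73+ minus CD73-, 1777 in CD49d+ minus CD73- and 4 in CD49d+ minus CD73+. With each array centred on its median, 1624 genes (5 of the set) passed in CD73+ minus CD73-, 5 of the set in CD49d+ minus CD73-, 657 (2) in CD49d+ minus CD73+ and 110 (1) in day 9 minus day 6, and the median log2 difference of the set from MEF turned from 0.15 to -0.011. Centring also moved the share of higher genes among those that passed from 59.6% to 49.8% in poised minus CD73- and from 57.6% to 44.7% in CD49d+ minus CD73-, and the median of all genes in SC4 against MEF from 0 to -0.12. Quantile normalization gave 340 genes in CD49d+ minus CD73+. With p of the same fits adjusted over all 22180 named genes, 994 genes (2 of the set) passed in poised minus CD73-. There 497 (0) passed in CD73+ minus CD73-, 1007 (1) in CD49d+ minus CD73- and 1 in CD49d+ minus CD73+. Without the day term, 612 (1) passed in CD73+ minus CD73-, 1 of the set in CD49d+ minus CD73- and 160 genes in CD49d+ minus CD73+. On the 6 sorted arrays, 2 of the set passed in poised minus CD73-, 616 genes (1) in CD73+ minus CD73-, 1183 (1) in CD49d+ minus CD73- and 0 in CD49d+ minus CD73+. With 1 array left out, the counts ran from 1 (without day 6 unsorted) to 1775 (without day 9 CD49d+) in poised minus CD73- (0 to 5 of the set), 0 to 1009 in CD73+ minus CD73- (0 to 1), 1 to 1203 in CD49d+ minus CD73- (0 to 3), and 0 in the other fitted comparisons. Against MEF they ran from 1531 to 1688 (6 to 7 of the set) and against ESC from 989 to 1047 (8 to 11). Over all alternatives, the differences of the genes of the set that passed kept their direction, kept the call in 54 refits and lost it in 72. Of the untested differences, 123 recomputed values kept every array at least 1 log2 unit apart and 6 did not: Pdk1 and Mxi1 in the 8 arrays, Slc2a1, Ndrg1 and Hif1a in ESC and Pdk1 in SC4, each as the mean over probe sets. For Pdk1 and Slc2a1 the other probe set lay at or near the floor, which lowers such a mean by construction. The 11 arrays, 3 residual degrees of freedom and the floor limit what can be seen in dim genes such as Epas1, Car9 and Adm.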
